A study of Solanum lycopersicum with 6 samples.

Results

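The SBP-box genes encode SPL transcription factors, a plant family defined by a zinc-binding DNA-binding domain. Many of their transcripts are cut or silenced by the microRNA miR156, which is abundant in young shoots and declines as a plant ages, so that SPL factors accumulate and promote flowering. They act on MADS-box genes of floral fate, on the miR172 and AP2 branch of the same timing pathway and, in rice and Arabidopsis, on shoot branching. In tomato, plants with too much miR156 are bushy, and CNR is best known from fruit that fails to ripen.

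The 10 loci described here were chosen by identifier from published assignments to the SBP-box family. All 10 were listed among 25440 loci in axillary buds, the young side shoots at the base of tomato leaves. RNA from buds of greenhouse tomato plants was sequenced in 3 libraries of the cultivar that the labels call compound raceme and in 3 of the cultivar monomaker, whose libraries are titled WT. The labels name no allele, treatment, plant age or bud position for either cultivar. They do not say whether libraries came from separate plants either, so the error behind each p-value is that between libraries and may be technical. Names come with 4 loci, CNR (Solyc02g077920), SPL3 (Solyc10g009080), SPL13 (Solyc05g015840) and SPL15 (Solyc10g078700), and the other loci are given by identifier. RefSeq (assembly SLM_r2.1) lists a gene with the synonym CNR on chromosome 2 and SBP3 on chromosome 10, the chromosomes of those identifiers. It lists no symbol for the other named pair.

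Levels are FPKM (fragment levels corrected for transcript length and library yield), and a locus listed in more than 1 entry was summed over its entries. Folds are differences of mean log2(FPKM + 1), compound raceme minus monomaker, which understate the change of low genes. Calls required an adjusted p below 0.05 in limma, over all 18802 loci whose mean reached 1 FPKM. FPKM summed to between 674654 and 687303 in compound raceme libraries and to between 717108 and 750250 in monomaker libraries, and the number of reads per library is unknown. The bud factor BRC1B and the meristem gene TKN2 were present in every library, TKN2 at uneven levels. It had 2.08, 17.6 and 18.9 FPKM in compound raceme 1 to 3, against 16.5, 8.03 and 7.13 FPKM in monomaker 1 to 3. The stem cell gene CLV3 was listed at 0 in all but compound raceme 2, and WUS, which marks the centre of the meristem, stayed at or below 0.53 FPKM.

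SBP-box loci were transcribed in the buds of both cultivars, and none of the 10 was called different between them. All 10 passed the filter on low values, and 0 were called in either direction, against 3.27% of all tested loci. The counts by direction were 0 higher, against 0.750% of all tested loci, and 0 lower, against 2.52%. At an unadjusted p below 0.05 the count was 1 of 10, SPL15, against 25.7% of all tested loci. Values of the cultivars did not overlap at 2 of the 10 loci, SPL15 and Solyc05g015510, both lower in compound raceme. Over all tested loci the share without overlap was 31.7% in either direction, 15.3% lower and 16.4% higher. The fold was below 0 at 7 of the 10 loci, against 46.1% of all tested loci, with a median log2 fold of -0.20 against 0.04 over all tested loci. The median size of the fold, taken without its sign, was 0.23 against 0.30. For 4 of the 10 loci the 95% confidence interval of the log2 fold lay within 1 on either side of 0, and for the others it reached a 2-fold difference in at least 1 direction.

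**Figure D1:**
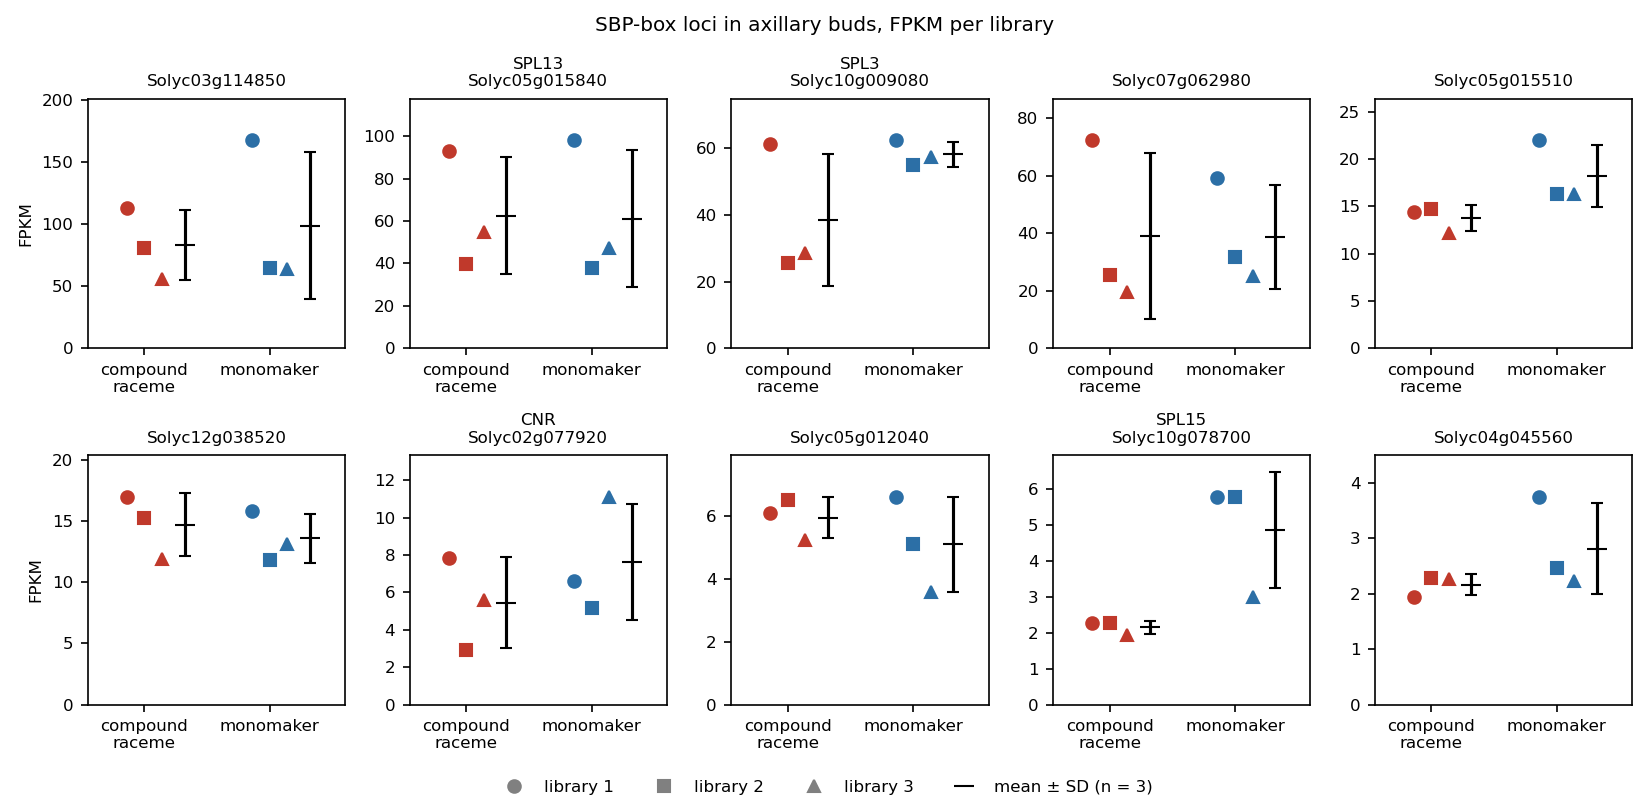
FPKM of the 10 SBP-box loci in each library, in order of their mean level, with compound raceme left and monomaker right in every panel; symbols give the library number and black bars the mean ± SD (n = 3). The cultivars do not overlap at SPL15 and Solyc05g015510, and the libraries numbered 1 are high at Solyc03g114850, SPL13 and Solyc07g062980.

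The levels of the family members spanned more than an order of magnitude, from a mean of 90.8 FPKM over all libraries for Solyc03g114850 to 2.49 FPKM for Solyc04g045560. Solyc03g114850, SPL13, SPL3 and Solyc07g062980 supplied 79.6% to 87.3% of the summed FPKM of the family in compound raceme libraries and 79.7% to 86.5% in monomaker libraries. Solyc03g114850 ranked first in all 6 libraries, and its mean stood above that of 93.1% of tested loci. Next in order of the mean came SPL13 at 61.8 FPKM, SPL3 at 48.3 FPKM and Solyc07g062980 at 38.9 FPKM. Their ranges over the libraries overlapped, and SPL13 exceeded SPL3 in 4 of 6 libraries, as SPL3 exceeded Solyc07g062980. Solyc05g015510 and Solyc12g038520 followed at 15.97 and 14.12 FPKM, the first above the second in 4 of 6 libraries. The one step in the order at which ranges of neighbouring loci did not overlap lay between Solyc12g038520, with a lowest value of 11.8 FPKM, and CNR, with a highest value of 11.1 FPKM. CNR at 6.54, Solyc05g012040 at 5.53, SPL15 at 3.51 and Solyc04g045560 at 2.49 FPKM made up the low end, and each overlapped the next in range. Summed over the family, FPKM came to 389, 215 and 198 in compound raceme 1 to 3 and to 447, 236 and 243 in monomaker 1 to 3.

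SPL15, whose Arabidopsis counterpart promotes flowering in the shoot meristem, showed the largest fold of the family. It had 2.26, 2.26 and 1.94 FPKM in compound raceme 1 to 3, against 5.78, 5.79 and 3.0 FPKM in monomaker 1 to 3. All compound raceme libraries lay below all monomaker libraries, and the compound raceme mean of 2.15 ± 0.185 FPKM and the monomaker mean of 4.86 ± 1.61 FPKM (SD, n = 3 each) stood in a ratio of 0.443. The log2 fold was -0.85 (SE 0.25, 95% confidence interval -1.44 to -0.26), with an adjusted p of 0.105. It was not called in any of 14 alternative fits, over which the adjusted p ran from 0.0811 to 0.293 and the fold from -1.11 to -0.73. An exact permutation test of 3 against 3 libraries cannot go below 0.1, and SPL15 was at that value. In bulk tissue, fewer cells that express a gene and less RNA per cell cannot be told apart.

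Both entries of SPL15 in the table were lower in compound raceme on average, to unequal degrees. The entry with coordinates lies on chromosome 10, 60559418 to 60566853 of SL3.0, on the minus strand. It had 1.71, 1.43 and 1.28 FPKM in compound raceme, against 3.12, 1.99 and 1.41 FPKM in monomaker, so that these values overlapped. The entry without coordinates had 0.55, 0.83 and 0.66 FPKM in compound raceme, against 2.66, 3.8 and 1.59 FPKM in monomaker, with no overlap. It made up 24.3%, 36.7% and 34.0% of the locus in compound raceme and 46.0%, 65.6% and 53.0% in monomaker. SPL15 was thus the 1 member of 6 with 2 entries whose entry shares did not overlap between cultivars, against 14.3% of 5522 such tested loci in either direction and 8.93% lower in compound raceme. Tested as separate entries, they had adjusted p of 0.0820 without and 0.452 with coordinates. The authors' deposited table gives the entry without coordinates a log2 ratio of -1.90 with a q-value of 0.000131, and the other a log2 ratio of -0.56 with a q-value of 0.283. In the authors' deposited table, that entry is the 1 of 16 entries of the family with a q-value below 0.05, against 10.2% of all entries with a q-value in either direction and 6.63% lower, and the next lowest q-value of the family is 0.210. The sources used here do not say how the entries of a locus differ or how reads were shared between them.

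**Figure D2:**
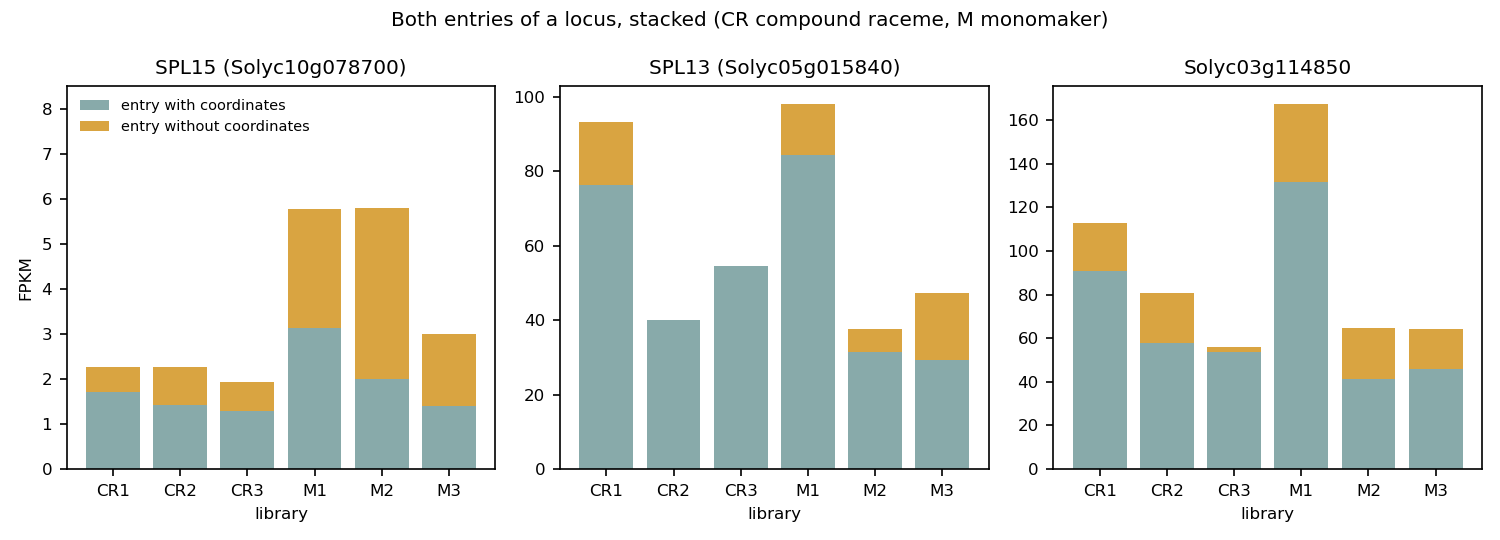
FPKM of both entries of 3 loci, stacked for each library, with compound raceme (CR) left of monomaker (M). At SPL15 the entry without coordinates supplies 24.3% to 36.7% of the level in compound raceme and 46.0% to 65.6% in monomaker; at SPL13 it is listed at 0 in compound raceme 2 and 3.

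Solyc05g015510 was the other locus without overlap. It had 14.4, 14.8 and 12.2 FPKM in compound raceme, against 22.0, 16.3 and 16.3 FPKM in monomaker, with a log2 fold of -0.37 (SE 0.17, 95% confidence interval -0.77 to 0.03, adjusted p = 0.225). The gap was narrow, with 14.8 FPKM in the highest compound raceme library and 16.3 FPKM in the lowest monomaker library. Its entry with coordinates (chromosome 5, 10767638 to 10773689 of SL3.0, minus strand) held at least 94.2% of the level in every library.

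SPL3, whose Arabidopsis counterpart activates floral identity genes, had 1 compound raceme library that stood apart from the others. It had 61.3, 25.5 and 28.5 FPKM in compound raceme, against 62.3, 54.9 and 57.4 FPKM in monomaker. Compound raceme 1 thus lay within the monomaker range, while the other compound raceme libraries lay below it. The log2 fold was -0.70 (SE 0.32, 95% confidence interval -1.46 to 0.07, adjusted p = 0.226). Without compound raceme 1 the locus was called lower in compound raceme, with a log2 fold of -1.08 (adjusted p = 0.0361), and without both libraries numbered 1 with a log2 fold of -1.03 (adjusted p = 0.0276). In 13 other alternative fits it was not called, with an adjusted p of up to 0.518. SPL3 has a single entry, for which the authors' deposited table gives a log2 ratio of -0.62 and a q-value of 0.267.

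Markers of dividing cells and some floral organ markers were lower in compound raceme. Whether any marker bears on the levels of the SBP-box loci, none of which was called, was not tested. All 6 markers of dividing cells were called lower, against 2.52% of all tested loci, with summed levels of 17.4 to 35.3 FPKM in compound raceme libraries and 137 to 238 FPKM in monomaker libraries. Of 5 tested floral organ markers 3 were called lower (TPI, TM5 and TM29), and TM5 was listed at 0 in compound raceme 1 and 2. The sum over all 6 was 53.3 to 83.0 FPKM in compound raceme libraries and 48.6 to 56.6 FPKM in monomaker libraries. Most of it was TM6, which was higher in compound raceme without overlap, at 49.5, 80.1 and 66.0 FPKM against 31.1, 41.0 and 36.2 FPKM (log2 fold 0.82, adjusted p = 0.0842). TAG1 had a log2 fold of 0.06. Of the 6 markers of dividing cells 0 were called without compound raceme 2, compound raceme 3, monomaker 2 or monomaker 3 or with a replicate block. Of the 7 bud and meristem markers 4 were tested and none was called with all 6 libraries. Their sums were 61.8 to 83.4 FPKM in compound raceme libraries and 21.7 to 60.9 FPKM in monomaker libraries. BRC1B alone had 43.4 to 55.7 FPKM in compound raceme and 11.5 to 32.2 FPKM in monomaker, while BRC1A, TKN2 and BL overlapped between the cultivars. TKN2 was called higher in 1 of 15 alternative fits, without both libraries numbered 1 (log2 fold 1.17, adjusted p = 0.022). The green tissue genes RBCS1 and CAB12 summed to 270 to 761 FPKM in compound raceme libraries and 734 to 5357 FPKM in monomaker libraries. With all 6 libraries neither was called. Each was called lower in 2 of 15 alternative fits. These were the fits without monomaker 1 (adjusted p of 0.024 and 0.0066) and without both libraries numbered 1 (0.0408 and 0.0107).

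CNR, the SPL factor needed for fruit ripening, was present at low levels in buds of both cultivars. It had 7.83, 2.93 and 5.61 FPKM in compound raceme, against 6.61, 5.14 and 11.1 FPKM in monomaker. The cultivars overlapped, with the highest level in monomaker 3 and the lowest in compound raceme 2 (log2 fold -0.43, SE 0.37, 95% confidence interval -1.31 to 0.44, adjusted p = 0.480). Its entry with coordinates (chromosome 2, 43310836 to 43313434 of SL3.0, minus strand) held at least 98.0% of the level. Its spread within cultivars, an SD of 0.55 on the log2 scale, exceeded that of 86.0% of tested loci.

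**Figure D3:**
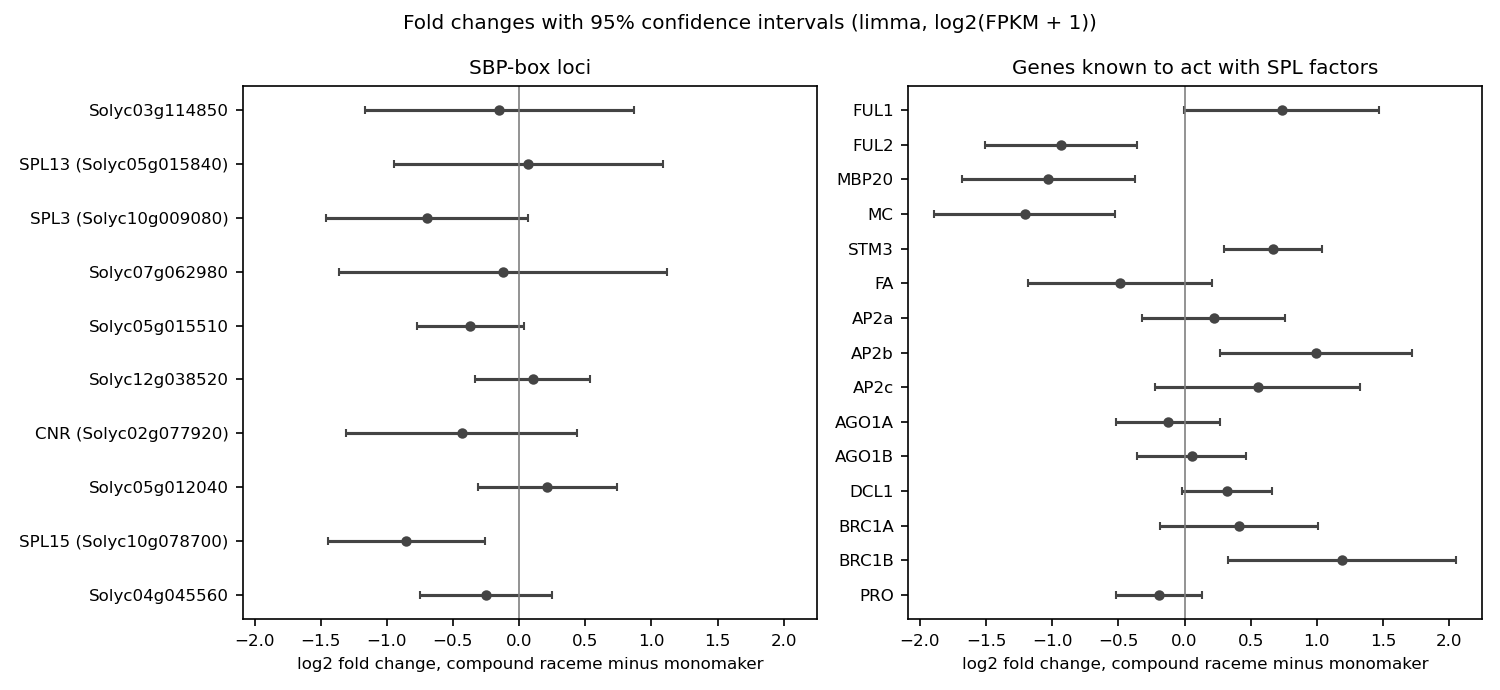
Log2 folds (compound raceme minus monomaker, points) with 95% confidence intervals (bars) from limma, for the 10 SBP-box loci in order of level (left) and the 15 tested genes known to act with SPL factors (right). The interval of SPL15 is the only one of the SBP-box loci that leaves out 0, before adjustment; none of the 25 genes shown was called after adjustment.

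SPL13, a target of miR156 that acts on inflorescence form in tomato, had similar means in the cultivars. It had 93.2, 40.0 and 54.7 FPKM in compound raceme, against 98.1, 37.7 and 47.4 FPKM in monomaker. Library 1 was high in each cultivar, and libraries 2 and 3 of the cultivars lay among each other (log2 fold 0.07, SE 0.43, 95% confidence interval -0.95 to 1.09, adjusted p = 0.930). The direction of this fold reversed in 3 of the 6 fits that left out a library, to -0.26 without compound raceme 1. Its entry with coordinates lies on chromosome 5, 12395136 to 12399001 of SL3.0, on the plus strand. The entry without coordinates was listed at 0 in compound raceme 2 and 3 and had 16.8 FPKM in compound raceme 1, against 13.7, 6.20 and 18.2 FPKM in monomaker. Its share of the locus overlapped between the cultivars.

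The remaining 5 loci overlapped between the cultivars as well. Solyc03g114850 (chromosome 3, 66227640 to 66233490 of SL3.0, plus strand), the most abundant member, had 113, 80.5 and 56.0 FPKM in compound raceme, against 167, 64.7 and 64.1 FPKM in monomaker (log2 fold -0.15, adjusted p = 0.849). Solyc07g062980 had 72.3, 25.5 and 19.6 FPKM in compound raceme, against 59.2, 31.9 and 25.1 FPKM in monomaker (log2 fold -0.12, adjusted p = 0.899). In both loci library 1 set the range, and leaving out monomaker 1 turned the folds to 0.31 and 0.22. Solyc12g038520 had 17.0, 15.2 and 11.9 FPKM in compound raceme, against 15.8, 11.8 and 13.1 FPKM in monomaker. Its log2 fold was 0.10, with a 95% confidence interval of -0.33 to 0.54. Solyc05g012040 (chromosome 5, 5269164 to 5273929 of SL3.0, plus strand) had 6.11, 6.52 and 5.23 FPKM in compound raceme, against 6.62, 5.12 and 3.58 FPKM in monomaker, with an interval of -0.31 to 0.74. Solyc04g045560 had 1.94, 2.28 and 2.27 FPKM in compound raceme, against 3.75, 2.47 and 2.22 FPKM in monomaker, with an interval of -0.75 to 0.25.

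Within the cultivars, the abundant members varied more between libraries than most loci did. The SD within a cultivar on the log2 scale was 0.82 for Solyc07g062980, 0.66 for SPL13, 0.66 for Solyc03g114850 and 0.48 for SPL3, against a median of 0.26 over all tested loci. For Solyc05g015510, Solyc04g045560 and Solyc12g038520 it was 0.20, 0.22 and 0.22. High spread was not limited to abundant members, as CNR had 0.55, SPL15 0.32 and Solyc05g012040 0.28. The libraries numbered 1 were the highest of their cultivar, in both cultivars at once, at 5 of the 10 loci (Solyc03g114850, SPL13, SPL3, Solyc07g062980 and Solyc12g038520), against 26.9% of all tested loci. At SPL13, library 1 had 1.97 times the mean of libraries 2 and 3 in compound raceme and 2.30 times in monomaker. The same ratios were 3.20 in compound raceme and 2.08 in monomaker at Solyc07g062980, and 1.65 in compound raceme and 2.60 in monomaker at Solyc03g114850. At SPL15 they were 1.08 in compound raceme and 1.32 in monomaker. The green tissue markers summed to 685 FPKM in compound raceme 1, between the values of 270 and 761 FPKM in compound raceme 2 and 3, and to 734 FPKM in monomaker 1, below the 3746 and 5357 FPKM of monomaker 2 and 3. Whether these markers bear on the levels of the SBP-box loci was not tested. This pattern was noticed after the values had been seen, and nothing in the labels says what the libraries numbered 1 share.

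**Figure D4:**
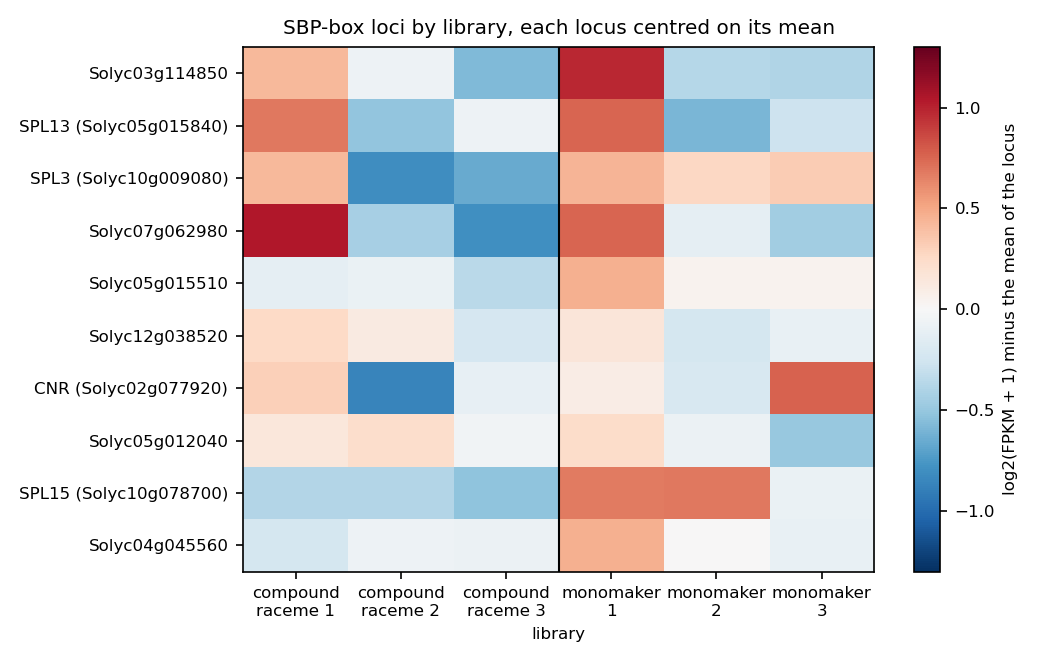
Log2(FPKM + 1) of each SBP-box locus minus its mean over the 6 libraries (colour, red above and blue below the mean), with compound raceme libraries left of the line and monomaker libraries right of it. Libraries numbered 1 are the highest of both cultivars at 5 of the 10 loci, and SPL15 is below its mean in all compound raceme libraries.

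Several SBP-box loci are near a MADS-box gene of the SEPALLATA class in identifier order. Products of this class help to specify floral meristems and organs. J2 (Solyc12g038510) and EJ2 (Solyc03g114840), which restrain branching of the tomato inflorescence, are each next in identifier order to a member, with 0 listed loci between. On SL3.0, EJ2 (66198734 to 66205172, minus strand) and Solyc03g114850 are separated by 22467 bases, and for the other pairs no distance in bases was available. Between TM5 (Solyc05g015750) and SPL13 lie 2 listed loci, and between the ripening factor RIN (Solyc05g012020) and Solyc05g012040 lies 1 listed locus. J2, EJ2 and TM5 were called lower in compound raceme, with log2 folds of -1.83, -1.35 and -2.18 (adjusted p of 0.0214, 0.0454 and 0.0194). These calls depend on the libraries used: all 3 were lost without compound raceme 2, compound raceme 3, monomaker 2 or monomaker 3 and with a replicate block. J2 was called in 9 of 14 alternative fits (adjusted p of up to 0.101), TM5 in 9 of 14 (up to 0.0944) and EJ2 in 4 of 15 (up to 0.180), with folds below 0 in every one. Their SBP-box neighbours Solyc12g038520, Solyc03g114850 and SPL13 had log2 folds of 0.10, -0.15 and 0.07, none of them called. J2 had at most 0.34 FPKM in compound raceme, against 2.4 to 3.62 FPKM in monomaker. TM5 had at most 0.05 FPKM in compound raceme, against 2.45 to 5.18 FPKM in monomaker. At such levels the added 1 FPKM limits the fold, so its size cannot be set beside that of abundant loci.

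The difference within each library was taken as log2(FPKM + 1) of the SBP-box locus minus that of the MADS-box locus. For Solyc12g038520 and J2 it was 4.17, 3.79 and 3.26 in compound raceme, against 1.90, 1.92 and 1.61 in monomaker. For SPL13 and TM5 it was 6.56, 5.36 and 5.73 in compound raceme, against 4.0, 3.06 and 3.81 in monomaker. Neither pair overlapped between the cultivars, and each had a two-sided exact permutation p of 0.1, the smallest that 3 against 3 libraries allow. For Solyc03g114850 and EJ2 it was 4.95, 4.23 and 3.26 in compound raceme, against 3.89, 2.85 and 2.11 in monomaker, which overlapped (exact permutation p = 0.2). RIN was at or below 0.26 FPKM in every library, while Solyc05g012040 beside it had at least 3.58 FPKM. The lower levels of J2, EJ2 and TM5 were known when these pairs were chosen, so the differences restate those levels and are no separate test. TM5 was listed at 0 in compound raceme 1 and 2, and J2 at 0 in compound raceme 1. There the difference is the level of the SBP-box locus alone. The share without overlap among other pairs of loci was not taken. Among the 60 listed loci within 3 places of a member on either side, members left out, 46 were tested, and the 3 called were J2, EJ2 and TM5, which is 6.52% against 3.27% of all tested loci. As given above, these calls were lost with any of 4 libraries left out.

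**Figure D5:**
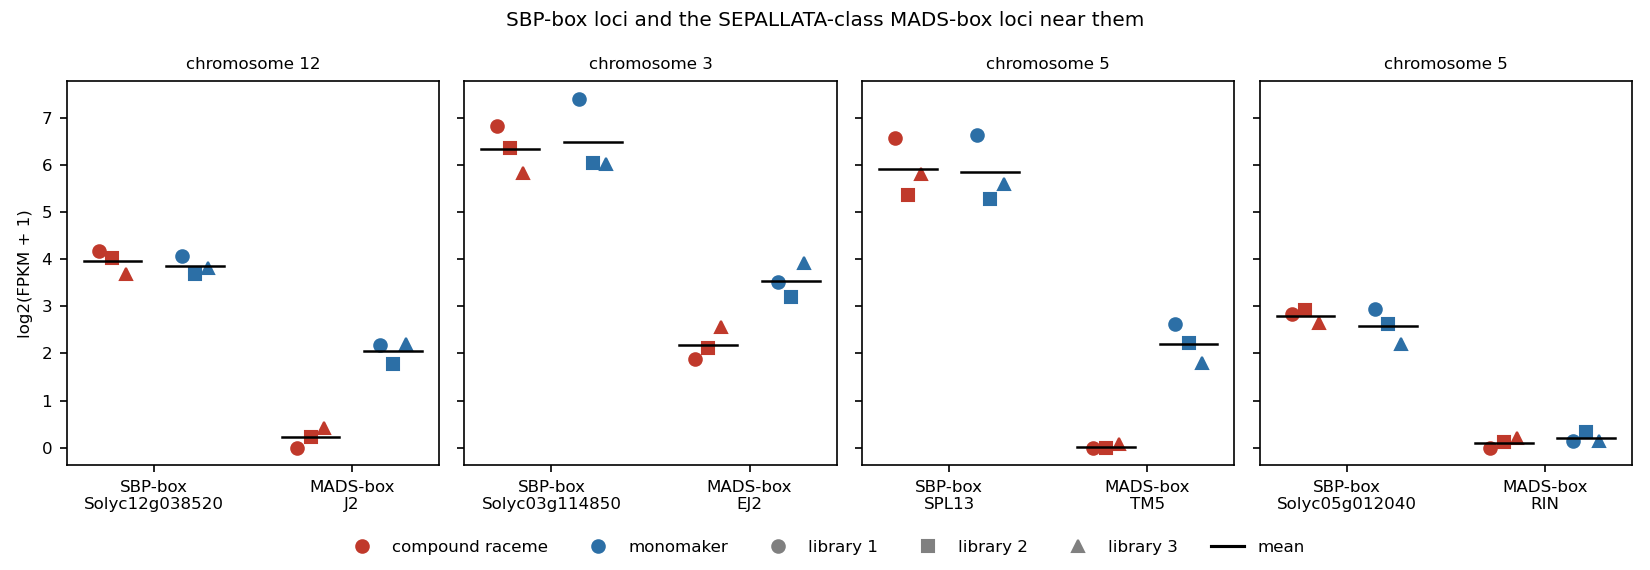
Log2(FPKM + 1) per library of 4 SBP-box loci and of the SEPALLATA-class MADS-box locus near each in identifier order, with compound raceme (red) left of monomaker (blue); black lines are means. J2, EJ2 and TM5 lie lower in compound raceme, the SBP-box loci beside them overlap between the cultivars, and RIN is near 0 in both.

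Of 17 genes known to act with SPL factors, 15 passed the filter on low values, and 0 were called higher and 0 lower, against 3.27% of all tested loci. At an unadjusted p below 0.05 the count was 6 of 15, against 25.7% of all tested loci. Values did not overlap at 8 of the 15, with 4 higher and 4 lower in compound raceme, against 31.7% of all tested loci in either direction. The median log2 fold was 0.22, against 0.04 over all tested loci.

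Among the flowering genes that SPL factors activate in Arabidopsis or their tomato relatives, MADS-box genes of the APETALA1 and FRUITFULL group lay on both sides. MC, a regulator of sepal size and inflorescence growth, had 4.02, 4.12 and 4.43 FPKM in compound raceme, against 16.8, 6.98 and 11.1 FPKM in monomaker (log2 fold -1.21, adjusted p = 0.0726). The FRUITFULL relatives FUL2 and MBP20 also had lower values in compound raceme, without overlap, with log2 folds of -0.93 and -1.03 (adjusted p of 0.0846 and 0.0903). MBP10 was too low for the test, at 0, 0.18 and 0.13 FPKM in compound raceme against 0.96, 0.73 and 1.33 FPKM in monomaker. It was called lower when low loci were kept (adjusted p = 0.0467). FUL1 and the SOC1-like gene STM3 had higher values in compound raceme, with log2 folds of 0.73 and 0.67 (adjusted p of 0.197 and 0.0696), and STM3 did not overlap between the cultivars. The LEAFY homologue FA had 0.67, 1.46 and 1.22 FPKM in compound raceme, against 3.07, 1.23 and 1.77 FPKM in monomaker (adjusted p = 0.330). The florigen gene SFT, which SPL13 is known to activate, was at or below 0.43 FPKM in every library.

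AP2 factors, the targets of miR172, had higher means in compound raceme. AP2b had 11.4, 13.3 and 11.6 FPKM in compound raceme, against 9.47, 5.01 and 3.50 FPKM in monomaker (log2 fold 0.99, SE 0.31, adjusted p = 0.114). The cultivars did not overlap, and the locus was called higher without monomaker 1 (log2 fold 1.33, adjusted p = 0.0148) and without both libraries numbered 1 (log2 fold 1.37, adjusted p = 0.0294). AP2a and AP2c overlapped between the cultivars, with log2 folds of 0.22 and 0.55. Of the small RNA machinery through which miR156 acts, the slicer genes AGO1A and AGO1B had log2 folds of -0.12 and 0.05, with 95% confidence intervals of -0.52 to 0.27 and -0.36 to 0.47. DCL1, which makes microRNAs from their precursors, had 12.6, 13.5 and 12.8 FPKM in compound raceme, against 10.9, 11.1 and 8.78 FPKM in monomaker (log2 fold 0.32, adjusted p = 0.218). The level of miR156 itself was not analysed here.

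BRC1 genes are of a class known for holding back bud outgrowth, though not every member need do so. Their maize and rice counterpart TB1 is activated by an SPL factor in rice. BRC1B and BRC1A had higher means in compound raceme. BRC1B had 53.9, 55.7 and 43.4 FPKM in compound raceme, against 32.2, 27.2 and 11.5 FPKM in monomaker, without overlap and without a call (log2 fold 1.19, SE 0.36, adjusted p = 0.113). BRC1A overlapped, with a log2 fold of 0.41. PRO, the DELLA protein of gibberellin response, a class that binds SPL factors in Arabidopsis, had 84.0, 89.4 and 85.9 FPKM in compound raceme, against 90.4, 101 and 107 FPKM in monomaker (log2 fold -0.20, adjusted p = 0.393).

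SPL15, the member with the lowest adjusted p, was compared with all tested loci by the root mean square difference of log2(FPKM + 1) over the 6 libraries, each locus centred on its mean. The closest loci were Solyc02g085480 and Solyc05g055280, at differences of 0.0986 and 0.0987, neither of which is named in the sources used here. Solyc05g055280 had 21.8, 23.7 and 19.7 FPKM in compound raceme, against 43.0, 40.5 and 25.6 FPKM in monomaker. Like SPL15 it was lowest among monomaker libraries in library 3, a likeness that follows from how the locus was picked. The closest other SBP-box locus was Solyc05g015510, at a difference of 0.330, which put it at rank 1230 by this measure.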

How the data were processed

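RNA of axillary buds was prepared with Trizol and sequenced as BGI500 libraries, per the labels' protocols. In the submitters' processing notes, RSEM 1.2.12, DESeq2 1.4.5, HISAT2 2.0.4 and Bowtie2 2.2.5 are named without roles, and no annotation release is named. The authors deposited FPKM values of 6 libraries, rounded, per the file headers, together with each entry's log2 ratio, p-value and q-value, which the authors computed by a method the file headers do not give. Chromosome names are those of SL3.0. Low values showed no step from which reads could be recovered in every library, so depth is unknown and no counting interval is given.

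The 31139 entries were summed by locus. Of these loci, 5699 had 2 entries. Where the mean reached 1 FPKM, limma 3.58.1 (R 4.3.3) was run on log2(FPKM + 1) (intensity trend, cultivar as the only term, Benjamini-Hochberg adjustment, the source of every adjusted p without another tool named). On simulated data of this size with 200 loci changed the test was checked for recovery of the folds. All 10 members are named, as is every gene of the list known to act with SPL factors; the neighbouring MADS-box genes and the loci most like the member with the lowest adjusted p were named by rule. Names of listed genes were recalled from published assignments; RefSeq has 14 of the 17 on the same chromosome, and MC, STM3 and FA were not found there. Members and lists were chosen with earlier results of these data known. Alternatives were other pseudocounts, filters and scalings, entries kept apart, no trend, a replicate block and libraries left out.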

Additional observations from a re-analysis of the deposited data

How the results depend on the processing

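No SBP-box member was called in 14 of 16 alternatives; 1 was called lower without compound raceme 1 and 1 without both libraries numbered 1, SPL3 in each case. Leaving out 1 library at a time, 0 to 1 members were called lower, 0 to 1 genes of the list known to act with SPL factors were called higher, and over all loci 6 to 735 were called higher and 0 to 1306 lower, the lowest counts without compound raceme 2 (0 lower also without compound raceme 3) and the highest without monomaker 1. Without both libraries numbered 1, 1 listed gene (AP2b) was called higher, and over all loci 664 were higher and 1257 lower. With low loci kept, 1 listed gene (MBP10) was called lower, and over all loci 108 were higher and 305 lower. With a mean of at least 5 FPKM required, 91 loci were higher and 298 lower, and SPL15, Solyc04g045560, FA and BRC1A were not tested. Quantile normalization gave 222 higher. Whether the library numbers pair the samples is not settled by these values. Over all tested loci, deviations of same-numbered libraries correlated at 0.0275, 0.058 and 0.103. Compound raceme 1 correlated best with monomaker 3 (0.0312) and compound raceme 2 with monomaker 1 (0.101), while compound raceme 3 correlated best with its own number. With a replicate block, the SE of the log2 fold went from 0.43 to 0.14 for SPL13 and from 0.52 to 0.18 for Solyc07g062980. For Solyc04g045560 it went from 0.21 to 0.23. With a replicate block no SBP-box call changed, and over all loci limma called 0 higher and 0 lower, with 4676 at an unadjusted p below 0.05. Log2 folds that changed sign were small in most cases, and none was called on either side. With each library left out in turn, they ran from -0.395 to 0.305 for Solyc03g114850, -0.257 to 0.468 for SPL13 (Solyc05g015840), -0.672 to 0.244 for Solyc07g062980, -0.0021 to 0.239 for Solyc12g038520, -0.033 to 0.187 for AGO1B (Solyc03g098280) and -0.245 to 0.0078 for AGO1A (Solyc06g072300). The fold of Solyc03g114850 was 0.059 without both libraries numbered 1 and 0.060 for its entry with coordinates, that of the SPL13 entry without coordinates was -2.28, and that of the AGO1A entry without coordinates was 0.161. The cause of these changes was not tested. Unknown depth limits the low members most.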

Other observations

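Fold directions among the loci around each member were looked at after the values had been seen, and none of the neighbours named in this paragraph was called. Over all tested loci 46.1% had a fold below 0. Of the loci within 3 places in identifier order, the 5 tested around Solyc04g045560 had log2 folds of -1.93 to -0.33, and the 5 tested around Solyc05g015510 had log2 folds of 0.13 to 0.85, while these members themselves had log2 folds of -0.25 and -0.37. Around CNR the 6 tested neighbours had log2 folds of -0.11 to 0.46, and around Solyc07g062980 the 4 tested neighbours had log2 folds of 0.11 to 0.44. Of all pairs of members, the profiles most alike over the 6 libraries, each centred on its mean, were those of Solyc05g015510 and Solyc04g045560, with a root mean square difference of 0.134 on the log2 scale. Profiles were not scaled for spread, so loci that vary little come out close by this measure. These loci had SDs within cultivars of 0.20 and 0.22, among the smallest of the family.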
